A study of Mus musculus with 20 samples.

Results

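Liver adenomas that arose under phenobarbital were compared with the non-tumour liver of mice that received no drug, so that drug and tumour differ together between the groups. The sample titles put 5 arrays in the adenoma group and 5 in the untreated group, 10 of the 20 arrays in the series. All probe sets with a single gene symbol were used, 34945 of 45037. Each of the 18193 genes was represented by its brightest such probe set, passing over those ending in _x_at where the gene had another kind. Another group, 5 arrays of non-tumour liver from mice given phenobarbital, shows what the drug did outside tumours and is the control group that the labels name for the adenomas. The other 5 arrays of the series, carcinomas, entered only the estimate of the spread between arrays.

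All groups were male C57BL/6 mice with a conditional Apc knockout, injected with 0.75 mg tamoxifen when 6 weeks old. The diet started 1 week afterwards and lasted 9 months, with 0.05% phenobarbital for the adenoma and the phenobarbital liver groups and none for the untreated group. The untreated group is called H2O in its labels while the protocol names standard chow, and the series' design text mentions DEN, a chemical initiator, where the sample protocols mention tamoxifen. Neither point was settled. The driver of the recombinase and the deleted part of Apc are not given in the sources used here, liver without the knockout allele was not analysed here, and the labels do not say whether each array came from a separate mouse. The p-values therefore measure the spread between these samples.

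Phenobarbital activates the constitutive androstane receptor, CAR (gene Nr1i3), in hepatocytes, which raises cytochrome P450 genes of the Cyp2b and Cyp2c families, conjugating enzymes and transporters. Apc is part of the complex that marks beta-catenin for destruction, and its loss leaves beta-catenin active. In liver, beta-catenin activity marks the hepatocytes around the central vein, which make glutamine, while hepatocytes around the portal vein carry out ureagenesis and much of amino acid breakdown. Sult3a1 (a sulfotransferase) and Cyp2b10 are drug-response genes in mouse liver, Abcc4 is an efflux pump of the hepatocyte membrane, and Afp is alpha-fetoprotein, made by fetal liver and by many liver tumours.

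The 4 marker genes of this contrast differed in pattern. Levels are log2 values of the array, listed for arrays 1 to 5 of a group. Afp was at 8.56, 11.10, 10.74, 10.59 and 11.42 in adenomas, at 4.63, 5.41, 4.83, 5.53 and 5.22 in phenobarbital liver and at 4.29, 4.44, 6.38, 5.92 and 5.004 in untreated liver. Every adenoma array exceeded every non-tumour array, and the difference from untreated liver was 5.27 (SE 0.50, adjusted p 2.63e-07, limma). Abcc4 was at 11.03, 10.99, 11.63, 11.66 and 13.99 in adenomas, at 10.32, 9.95, 10.24, 10.50 and 10.26 in phenobarbital liver and at 6.47, 6.37, 7.83, 7.04 and 6.60 in untreated liver, so that the 3 groups did not overlap and adenomas were highest. Cyp2b10 was at 7.64, 13.22, 11.01, 12.46 and 9.24 in adenomas, at 12.97, 12.997, 13.46, 13.11 and 13.11 in phenobarbital liver and at 6.56, 6.69, 7.74, 8.90 and 7.64 in untreated liver. Its adenoma arrays ran from inside the untreated range to inside the phenobarbital range. Sult3a1 was at 3.60, 4.11, 3.79, 5.08 and 5.87 in adenomas, at 11.88, 11.002, 11.36, 10.91 and 9.90 in phenobarbital liver and at 4.03, 3.49, 3.81, 3.32 and 4.45 in untreated liver. All 5 phenobarbital liver arrays were above both other groups, while adenoma and untreated arrays overlapped. Alb (albumin), a defining hepatocyte transcript, was at 14.92 in adenomas, 14.93 in phenobarbital liver and 14.96 in untreated liver, close to the top of the array's scale.

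**Figure D1:**
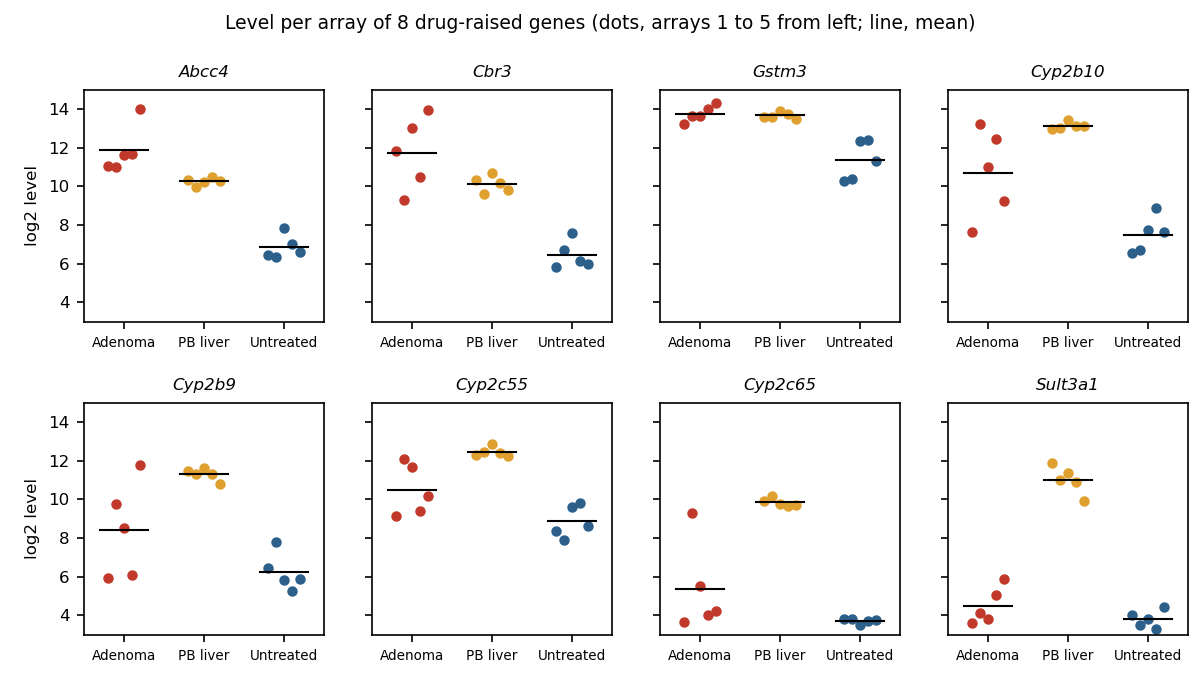
Log2 level (vertical axis) of 8 drug-raised genes, 1 dot per array with arrays 1 to 5 from left to right in each group, and a line at the group mean. Abcc4, Cbr3 and Gstm3 are above the untreated arrays on every adenoma array, the Cyp2b and Cyp2c genes spread widely between adenomas, and Sult3a1 spans 3.60 to 5.87 in adenomas against 3.32 to 4.45 in untreated liver.

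Apc itself, the targeted gene, was at 9.06 ± 0.19 in adenomas, 8.54 ± 0.12 in phenobarbital liver and 8.84 ± 0.13 in untreated liver (mean ± SD, n = 5 each). The adenoma difference from untreated liver was 0.22 (95% interval 0.00 to 0.44, adjusted p 0.132), and without adenoma array 5 it was 0.29 with adjusted p 0.0455. Against phenobarbital liver it was 0.52 (adjusted p 0.0011). Its 3 other probe sets differed from untreated liver by -0.23, -0.08 and 0.35 on the log2 scale. All groups carry the allele and probe sets outside the deleted part keep their signal, so these values do not check the labels. Axin2, a direct target of beta-catenin, was higher in adenomas, at 10.07, 8.66, 9.38, 8.21 and 9.61, against 7.10, 7.19, 6.65, 7.09 and 7.40 in untreated liver.

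Array medians lay between 5.52 and 5.57 in adenomas, 5.562 and 5.597 in phenobarbital liver, and 5.54 and 5.57 in untreated liver. Untreated arrays 3 and 4 stood apart from the other untreated arrays. Afp was at 6.38 and 5.92 on them and between 4.29 and 5.004 on the others, Gstm3 at 12.35 and 12.37 against 10.30 to 11.30, and Mki67, a proliferation marker, at 6.98 and 6.86 against 5.04 to 5.38. Both were kept. Tissue pieces hold many cell types, so fewer cells of a type and less RNA per cell cannot be told apart in any of the values below.

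Across all genes, 4586 of 18193 differed between adenomas and untreated liver at an adjusted p under 0.05 (25.2%), 2502 of them higher in adenomas (13.8%) and 2084 lower (11.5%). With a change of at least 2-fold as well, 847 were higher (4.66%) and 481 lower (2.64%). The median difference over all genes was -0.027 on the log2 scale. Between adenomas and phenobarbital liver 4470 genes differed (24.6%), and between phenobarbital liver and untreated liver 39 did (0.214%), with 35 higher (0.192%) and 4 lower (0.022%) in phenobarbital liver. The 3 comparisons share arrays pairwise, so their values are set side by side below and their likeness is not tested. Of the 10092 probe sets with several symbols or none, 465 were higher in adenomas than in untreated liver (4.61%).

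The 35 genes that phenobarbital raised outside tumours split in adenomas. Relative to untreated liver, 21 were still higher in adenomas, 10 did not pass the test and were lower than in phenobarbital liver, and 4 were lower than in untreated liver. The 25 that passed against untreated liver are 71.4% of the 35, where 25.2% of all genes passed; since the 35 were chosen for high values over the same untreated arrays, nothing is read from that share. The median difference of the 35 from untreated liver was 1.43 in adenomas, where by their choice it was 2.06 in phenobarbital liver. All 5 adenoma arrays were above all 5 untreated arrays for 15 of the 35 (9.19% of all genes were), below all of them for 4 (8.05%), and overlapped for 16. With the drug-raised genes called anew each time, the number still higher in adenomas was 13 without untreated array 1, and 11, 10, 9 and 13 without phenobarbital liver arrays 1, 2, 3 and 4, and 14 of 24 drug-raised genes without untreated arrays 3 and 4. Of the same 35 genes, between 18 and 23 were still higher under the 26 alternative settings. With each comparison fitted on its 2 groups alone, 186 genes were drug-raised. In adenomas 87 of these were still higher and 33 did not pass and were lower than in phenobarbital liver. A further 16 were below untreated liver, and 50 fell in none of these classes. With array weights the numbers were 77, 37, 14 and 22 of 150.

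**Figure D2:**
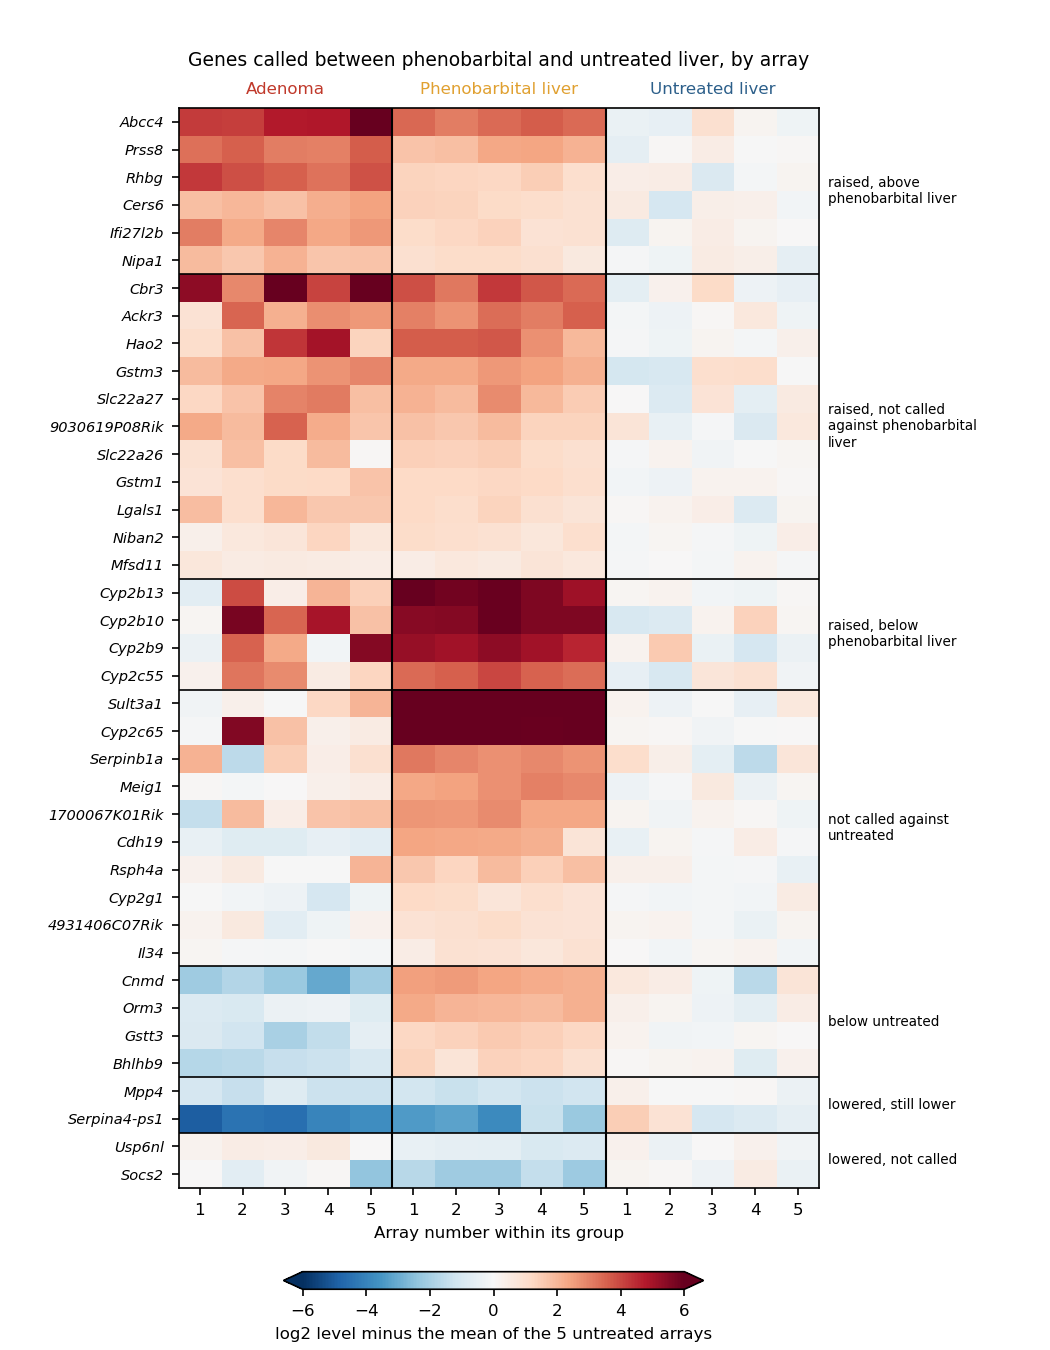
The 39 genes called between phenobarbital and untreated liver (rows, grouped by what they did in adenomas) on 15 arrays (columns), coloured by log2 level minus the mean of the 5 untreated arrays, with values past 6 in the end colour. Rows of the first group are deepest on the adenoma arrays, the Sult3a1 row is deep on the phenobarbital arrays and pale on adenomas, and the Cyp2b rows differ between adenoma arrays.

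Adenomas differed among themselves in the levels of these 35 genes. Of the 35 genes, 18 exceeded every untreated array on adenoma array 1, 25 on array 2, 24 on array 3, 22 on array 4 and 25 on array 5. The median of the 35 above the untreated mean was 0.29 on adenoma array 1 and between 1.29 and 1.69 on the other 4. On phenobarbital liver arrays, which served to choose the 35, it lay between 1.82 and 2.28. What drug and tumour each contributed to the adenoma levels was not tested. At the same time 9, 7, 11, 13 and 12 of the 35 exceeded every phenobarbital liver array on adenoma arrays 1 to 5. These counts were not made over all genes for each array. Whether an array stood apart for the 35 or for genes in general was therefore not tested.

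Promoter windows of 5 of these genes are shown because the genes parted in adenomas: 3 Cyp2b genes fell short of the phenobarbital level, Sult3a1 was near the untreated level and Abcc4 exceeded phenobarbital liver. Each window holds 300 bases, most of them before the annotated start, 5′ to 3′ along the gene's strand, from RefSeq on assembly GRCm38.p6. They are Cyp2b10 at chr7:25897408-25897707 (+), Cyp2b9 at chr7:26173159-26173458 (+), Cyp2b13 at chr7:26061245-26061544 (+), Sult3a1 at chr10:33857472-33857771 (+) and Abcc4 at chr14:118706170-118706469 (-), the last being the window nearest the annotated gene start of the 2 listed. Capitals mark matches, on either strand, to AGGTCA and AGTTCA (nuclear receptor half-sites), CTTTGA (the core of TCF/LEF sites) and TGACNNNGC (the antioxidant response element core).
Cyp2b10: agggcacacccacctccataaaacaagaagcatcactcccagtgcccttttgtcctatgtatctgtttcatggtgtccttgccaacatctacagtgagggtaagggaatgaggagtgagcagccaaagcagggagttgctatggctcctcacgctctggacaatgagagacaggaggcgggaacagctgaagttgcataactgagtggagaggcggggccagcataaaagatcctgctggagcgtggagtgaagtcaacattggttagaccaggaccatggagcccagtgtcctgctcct
Cyp2b9: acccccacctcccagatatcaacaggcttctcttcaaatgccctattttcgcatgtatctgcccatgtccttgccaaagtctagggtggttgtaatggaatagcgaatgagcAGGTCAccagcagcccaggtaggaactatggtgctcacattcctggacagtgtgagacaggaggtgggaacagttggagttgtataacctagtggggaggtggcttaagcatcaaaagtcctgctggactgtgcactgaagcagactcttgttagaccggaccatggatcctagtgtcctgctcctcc
Cyp2b13: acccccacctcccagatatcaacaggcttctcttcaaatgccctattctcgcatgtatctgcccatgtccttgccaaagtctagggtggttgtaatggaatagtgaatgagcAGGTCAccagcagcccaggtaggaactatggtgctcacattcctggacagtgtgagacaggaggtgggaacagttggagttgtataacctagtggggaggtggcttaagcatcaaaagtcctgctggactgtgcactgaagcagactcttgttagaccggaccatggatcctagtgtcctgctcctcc
Sult3a1: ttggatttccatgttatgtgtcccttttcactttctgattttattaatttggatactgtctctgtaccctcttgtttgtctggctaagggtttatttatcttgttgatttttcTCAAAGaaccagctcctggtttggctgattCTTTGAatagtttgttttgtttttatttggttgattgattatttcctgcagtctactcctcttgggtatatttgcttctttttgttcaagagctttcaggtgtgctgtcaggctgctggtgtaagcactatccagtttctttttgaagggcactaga
Abcc4: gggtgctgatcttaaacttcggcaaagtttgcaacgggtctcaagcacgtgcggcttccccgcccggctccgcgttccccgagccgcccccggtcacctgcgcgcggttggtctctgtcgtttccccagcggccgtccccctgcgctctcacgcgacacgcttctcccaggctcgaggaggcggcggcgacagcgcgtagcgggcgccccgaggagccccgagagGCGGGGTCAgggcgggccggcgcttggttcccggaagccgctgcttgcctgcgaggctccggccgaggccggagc

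Cyp2b9 and Cyp2b13 share 298 of 300 aligned bases in these windows (99.3%), and each shares 229 of 314 aligned positions with Cyp2b10 (72.9%). AGGTCA is at base -138 in Cyp2b9 and Cyp2b13, CTTTGA is in Sult3a1 at bases -137 and -107, and TGACNNNGC is in Abcc4 at base -25. None of the 4 motifs is in the Cyp2b10 window. Among all 32851 windows, 16.3% hold AGGTCA, 14% AGTTCA, 16% CTTTGA and 12.4% TGACNNNGC, and of the 27025 genes with a window 18.1%, 15.7%, 18.2% and 14% have it in at least 1. Of the 16 genes with a window among the 21 that were still higher in adenomas, 4 hold AGGTCA, 1 AGTTCA, 2 CTTTGA and 2 TGACNNNGC. Of the 9 with a window among the other 14, none holds AGGTCA and 2 hold each of the other motifs. The 4 genes with AGGTCA include Cyp2b9 and Cyp2b13, whose windows are nearly identical, so their matches are not independent. AGGTCA read on the other strand shares its first 4 bases with TGACNNNGC, so 1 stretch can match both. A match describes the letters of a window and is no evidence of a bound site.

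Abcc4 led the 6 drug-raised genes that were higher in adenomas than in phenobarbital liver as well as untreated liver. Its difference from untreated liver was 5.0 (SE 0.46, adjusted p 1.86e-07), and from phenobarbital liver 1.61 (adjusted p 0.0141). Prss8, which encodes the membrane serine protease prostasin, was at 10.32, 10.62, 10.11, 10.06 and 10.67 in adenomas, at 8.73, 8.81, 9.36, 9.39 and 9.10 in phenobarbital liver and at 6.48, 7.10, 7.45, 7.01 and 7.08 in untreated liver. Rhbg, an ammonium transporter of hepatocytes around the central vein, was at 12.04, 11.67, 11.36, 11.03 and 11.59 in adenomas, at 9.13, 9.08, 9.03, 9.27 and 8.81 in phenobarbital liver and at 8.17, 8.22, 6.92, 7.65 and 7.95 in untreated liver. For both genes the groups formed 3 separate steps, with differences from untreated liver of 3.33 and 3.76 (adjusted p 3.11e-10 and 7.94e-10).

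The other 3 of these 6 were smaller in size. Cers6, a ceramide synthase, averaged 8.86 ± 0.28 in adenomas, 8.01 ± 0.18 in phenobarbital liver and 6.83 ± 0.63 in untreated liver. Ifi27l2b, of an interferon-inducible family, averaged 9.80 ± 0.36 in adenomas, 8.27 ± 0.22 in phenobarbital liver and 7.17 ± 0.45 in untreated liver. Nipa1, a magnesium transporter, averaged 7.01 ± 0.19 in adenomas, 6.15 ± 0.20 in phenobarbital liver and 5.22 ± 0.43 in untreated liver. The other Nipa1 probe set was higher in adenomas than in untreated liver by 0.641 (adjusted p 0.0244). Its difference from phenobarbital liver, 0.177 (adjusted p 0.591), and its drug difference, 0.464 (adjusted p 0.762), did not pass. For each of the 6 genes both adenoma comparisons passed under all 26 alternative settings. The drug call that put a gene in the set was less settled for some. It was lost in 16 of the 26 settings for Cers6 and for Socs2, in 15 for Niban2, 13 for 4931406C07Rik, 12 for Slc22a26, 11 for Usp6nl, 10 for 9030619P08Rik and 9 for Gstm3, and in none for 16 of the 39 drug genes.

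Cbr3, a carbonyl reductase, showed the largest rise of the drug-raised genes in adenomas. It was at 11.83, 9.31, 13.01, 10.51 and 13.93 in adenomas, at 10.31, 9.62, 10.71, 10.16 and 9.82 in phenobarbital liver and at 5.84, 6.68, 7.59, 6.15 and 5.96 in untreated liver. All adenoma arrays were above all untreated arrays, while adenoma array 2 was below the phenobarbital range, array 4 within it and arrays 1, 3 and 5 above it. The difference from untreated liver was 5.27 (SE 0.65, adjusted p 6.86e-06). The difference from phenobarbital liver was 1.59 with a 95% interval of 0.24 to 2.94 and an adjusted p of 0.0804; without adenoma array 2 it was 2.19 with adjusted p 0.00805.

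Cbr3 was among 11 drug-raised genes that were higher in adenomas than in untreated liver and did not pass the test against phenobarbital liver. Gstm3, a mu-class glutathione transferase, was at 13.24, 13.61, 13.65, 14.02 and 14.29 in adenomas, at 13.60, 13.60, 13.92, 13.74 and 13.48 in phenobarbital liver and at 10.30, 10.36, 12.35, 12.37 and 11.30 in untreated liver. Its difference from phenobarbital liver was 0.09 with a 95% interval of -0.87 to 1.06, and untreated arrays 3 and 4 were the highest of their group. Gstm1, a close relative, was at 13.52, 13.74, 13.87, 13.92 and 14.44 in adenomas, at 13.91, 13.89, 13.94, 13.92 and 13.71 in phenobarbital liver and at 12.54, 12.41, 12.92, 12.90 and 12.78 in untreated liver, with no overlap of the first and the last group. The interval of its difference from phenobarbital liver, -0.35 to 0.40, was the narrower of the 2. Mu-class genes resemble each other in sequence, so their probe sets may share signal.

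Hao2, a peroxisomal hydroxyacid oxidase, was at 6.94, 7.62, 10.16, 10.88 and 7.21 in adenomas, at 9.49, 9.53, 9.62, 8.62 and 7.81 in phenobarbital liver and at 5.80, 5.62, 6.02, 5.77 and 6.16 in untreated liver. All adenomas exceeded untreated liver, with adenoma arrays 3 and 4 above the phenobarbital range and arrays 1, 2 and 5 below it. Ackr3, a scavenging receptor for the chemokine CXCL12, was at 5.30, 7.93, 6.61, 7.25 and 7.08 in adenomas, at 7.47, 7.15, 7.81, 7.52 and 8.03 in phenobarbital liver and at 4.34, 4.13, 4.54, 5.07 and 4.20 in untreated liver. Adenoma array 1 was close to the untreated range and the other 4 were well above it. Slc22a27 and Slc22a26, of the organic anion transporter family and alike in sequence, were higher than in untreated liver by 2.17 and 1.17 (adjusted p 0.000161 and 0.00164). Their 95% intervals against phenobarbital liver were -0.64 to 0.86 and -0.62 to 0.43.

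The remaining 4 of the 11 with a smaller or less certain place were Lgals1, Niban2, Mfsd11 and the gene model 9030619P08Rik. Lgals1, galectin-1, averaged 13.08 ± 0.37 in adenomas, 12.53 ± 0.22 in phenobarbital liver and 11.46 ± 0.48 in untreated liver. Its difference from phenobarbital liver was 0.55 with adjusted p 0.0504, and it passed in 13 of the 26 alternative settings. 9030619P08Rik averaged 10.19 ± 0.73 in adenomas, 9.46 ± 0.24 in phenobarbital liver and 7.88 ± 0.71 in untreated liver. Niban2 was higher than in untreated liver by 0.71 (adjusted p 0.00931). With untreated arrays 3 and 4 left out its difference was 0.60 (adjusted p 0.0712). Mfsd11 was higher by 0.53 (adjusted p 7.58e-05), but its 2 other probe sets gave -0.182 and -0.185, and the mean of all its probe sets 0.05 with adjusted p 0.647.

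**Figure D3:**
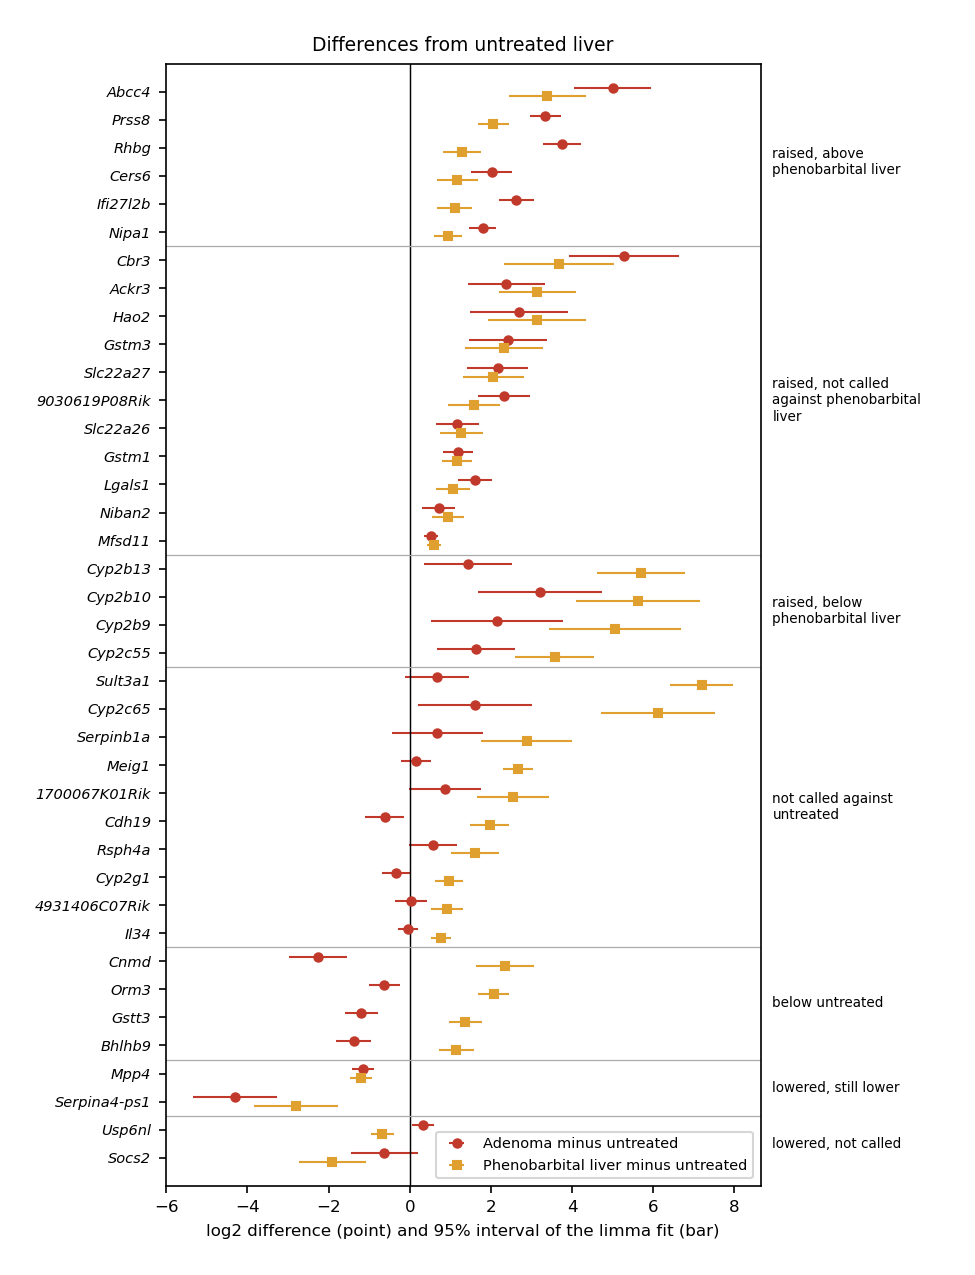
Log2 difference from untreated liver (horizontal axis) of the 39 genes called between phenobarbital and untreated liver, for adenomas (circles) and phenobarbital liver (squares), with 95% intervals of the limma fit as bars. Both sets of points use the same untreated arrays. Cnmd lies at -2.26 in adenomas against 2.35 in phenobarbital liver, the widest split among genes below untreated liver.

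Among the drug-raised P450 genes, Cyp2b10, Cyp2b9, Cyp2b13 and Cyp2c55 were above untreated liver and below phenobarbital liver. The difference of Cyp2b10 from untreated liver was 3.21 (95% interval 1.69 to 4.73, adjusted p 0.00268), and it differed from phenobarbital liver by -2.41 (adjusted p 0.0197). Without adenoma array 5 the second comparison gave -2.05 with adjusted p 0.0534, and with only the 2 groups fitted its adjusted p was 0.0608. Its 2 other probe sets were higher than in untreated liver by 3.78 and 3.67. Against phenobarbital liver they gave -2.085 (adjusted p 0.0432) and -1.925 (adjusted p 0.0616), so that the second did not pass.

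Cyp2b9 was at 5.92, 9.77, 8.52, 6.10 and 11.76 in adenomas, at 11.47, 11.30, 11.63, 11.30 and 10.82 in phenobarbital liver and at 6.45, 7.81, 5.84, 5.27 and 5.91 in untreated liver. Cyp2b13 was at 5.19, 9.75, 6.25, 7.87 and 7.25 in adenomas, at 11.88, 11.62, 11.78, 11.44 and 10.93 in phenobarbital liver and at 5.96, 6.05, 5.68, 5.59 and 5.88 in untreated liver. For Cyp2b9, adenoma arrays 1 and 4 were within the untreated range and array 5 was above the phenobarbital range. For Cyp2b13, array 1 was below the untreated range, and array 2 was the highest adenoma array but below every phenobarbital array. Their differences from untreated liver, 2.16 and 1.43, passed narrowly (adjusted p 0.0479 and 0.0494) and were lost in 19 and 21 of the 26 alternative settings. Cyp2c55 was at 9.15, 12.11, 11.70, 9.38 and 10.18 in adenomas, at 12.28, 12.44, 12.87, 12.39 and 12.23 in phenobarbital liver and at 8.39, 7.92, 9.62, 9.80 and 8.64 in untreated liver, a difference from untreated liver of 1.63 (adjusted p 0.0131). Members of the Cyp2b and the Cyp2c family are alike in sequence, so the probe sets may share signal within a family.

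Of the 10 genes that did not pass against untreated liver, Sult3a1 fell furthest below phenobarbital liver, by 6.52 on the log2 scale (adjusted p 6.94e-10). Its difference from untreated liver was 0.67 (95% interval -0.12 to 1.46, adjusted p 0.217), against 7.19 in phenobarbital liver. Cyp2c65 was at 3.67, 9.30, 5.51, 4.03 and 4.21 in adenomas, at 9.93, 10.17, 9.78, 9.68 and 9.72 in phenobarbital liver and at 3.84, 3.82, 3.51, 3.73 and 3.78 in untreated liver. Adenoma array 2 was close to the phenobarbital range, array 3 in between, and arrays 1, 4 and 5 near the untreated arrays. Its difference from untreated liver was 1.61 (95% interval 0.20 to 3.02, adjusted p 0.0909), and 2.03 with adjusted p 0.0347 without adenoma array 1.

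Serpinb1a, an inhibitor of neutrophil proteases, was at 10.998, 7.35, 10.40, 9.30 and 9.89 in adenomas, at 12.08, 11.86, 11.67, 11.78 and 11.59 in phenobarbital liver and at 9.98, 9.24, 8.33, 7.35 and 9.65 in untreated liver. Adenoma array 2 equalled the lowest untreated array and arrays 1 and 3 exceeded the highest. Without adenoma array 2 the difference was 1.24 with adjusted p 0.0439. The gene model 1700067K01Rik was at 4.25, 7.56, 6.04, 7.35 and 7.48 in adenomas, at 8.30, 8.27, 8.51, 7.98 and 8.01 in phenobarbital liver and at 5.84, 5.47, 5.88, 5.71 and 5.42 in untreated liver. Adenoma array 1 was below the untreated range and the others above it, and without array 1 the difference was 1.45 with adjusted p 0.000163.

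The estimates nearest to the untreated level were those of Il34, a ligand of the CSF1 receptor, 4931406C07Rik and Meig1, a gene of sperm formation, at -0.04, 0.03 and 0.15. Meig1 was at 3.97, 3.77, 3.92, 4.21 and 4.31 in adenomas, at 6.18, 6.29, 6.61, 6.90 and 6.77 in phenobarbital liver and at 3.58, 3.81, 4.48, 3.55 and 3.98 in untreated liver, with a 95% interval of -0.21 to 0.51 for adenomas minus untreated liver. The interval was -0.29 to 0.20 for Il34 and -0.36 to 0.41 for 4931406C07Rik. Cdh19, a cadherin, averaged 3.72 ± 0.13 in adenomas, 6.31 ± 0.67 in phenobarbital liver and 4.33 ± 0.33 in untreated liver. Its difference from untreated liver, -0.62, had an adjusted p of 0.0542 and passed in 4 of the 26 alternative settings, which would put it below untreated liver. The intervals were -0.03 to 1.15 for Rsph4a, a part of motile cilia, and -0.69 to -0.00 for Cyp2g1, known from the olfactory mucosa. Untreated means of Sult3a1, Cyp2c65, Meig1, Cdh19, Rsph4a and Il34 were dim, at 3.82, 3.74, 3.88, 4.33, 3.67 and 4.66. The lowest value on any array was 2.67. Differences shrink in dim signal, so for these genes a fall below the untreated level could be missed.

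Cnmd, Orm3, Gstt3 and Bhlhb9 were higher with the drug outside tumours and lower than untreated liver in adenomas. Cnmd, chondromodulin, was at 5.05, 5.40, 4.96, 4.11 and 5.05 in adenomas, at 9.63, 9.75, 9.53, 9.41 and 9.29 in phenobarbital liver and at 7.81, 7.63, 6.90, 5.55 and 7.95 in untreated liver, a difference from untreated liver of -2.26 (adjusted p 6.23e-05). Gstt3, a theta-class glutathione transferase, was at 9.20, 8.94, 8.13, 8.63 and 9.55 in adenomas, at 11.33, 11.47, 11.66, 11.51 and 11.32 in phenobarbital liver and at 10.31, 9.88, 9.94, 10.20 and 10.12 in untreated liver. Bhlhb9 was at 4.88, 4.97, 5.22, 5.28 and 5.62 in adenomas, at 7.92, 7.35, 7.95, 7.88 and 7.52 in phenobarbital liver and at 6.66, 6.74, 6.80, 5.85 and 6.84 in untreated liver. No adenoma array of these 3 genes reached the lowest untreated array. Orm3, of the orosomucoid family of acute phase proteins, differed from untreated liver by -0.63 (adjusted p 0.0163), and by -0.52 with adjusted p 0.0536 without untreated array 5.

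Of the 4 genes that phenobarbital lowered outside tumours, 2 were still lower in adenomas. Mpp4, a membrane scaffold gene, averaged 4.35 ± 0.24 in adenomas, 4.30 ± 0.12 in phenobarbital liver and 5.50 ± 0.23 in untreated liver. The serpin pseudogene Serpina4-ps1 was at 4.14, 4.66, 4.59, 5.14 and 5.38 in adenomas, at 5.68, 5.87, 5.30, 7.74 and 6.87 in phenobarbital liver and at 10.57, 9.98, 8.08, 8.29 and 8.55 in untreated liver, and adenomas were below phenobarbital liver too (adjusted p 0.0309, lost in 5 of 26 alternative settings). Socs2, a feedback inhibitor of growth hormone signalling, was at 8.83, 8.15, 8.58, 8.86 and 6.45 in adenomas, at 7.12, 6.69, 6.68, 7.36 and 6.63 in phenobarbital liver and at 8.95, 8.89, 8.49, 9.29 and 8.38 in untreated liver. Adenoma array 5 was below the phenobarbital range, array 2 just below the untreated range and the other 3 within it. Usp6nl differed from untreated liver by 0.33 (95% interval 0.06 to 0.61, adjusted p 0.0735).

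The genes that changed most in adenomas were mostly outside the drug-raised set. The 10 largest rises with no overlap between adenoma and untreated arrays were Nupr1, Ly6d, Cbr3, Afp, Abcc4, Sult2a2, Plat, Calml4, Mogat2 and Vldlr, with log2 differences between 4.70 and 5.58. Nupr1, a stress-induced regulator of transcription, was at 9.95, 11.53, 10.49, 12.22 and 9.43 in adenomas, at 5.52, 5.04, 5.08, 5.15 and 5.38 in phenobarbital liver and at 4.96, 5.07, 5.48, 5.22 and 4.99 in untreated liver. The cell surface gene Ly6d was at 11.61, 12.16, 13.68, 13.33 and 13.33 in adenomas, at 9.05, 9.24, 9.21, 8.51 and 8.19 in phenobarbital liver and at 6.69, 6.43, 8.66, 7.57 and 6.86 in untreated liver. For both genes all adenoma arrays were above all others. Sult2a2, a hydroxysteroid sulfotransferase with close relatives in its family, was at 5.54, 12.62, 7.21, 13.54 and 7.99 in adenomas against 4.12 to 4.64 in untreated liver. Its rise came with the widest spread among adenomas of the 10, with arrays 2 and 4 highest.

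Plat, tissue plasminogen activator, averaged 10.09 ± 1.36 in adenomas and 5.24 ± 0.28 in untreated liver. Mogat2, which adds a fatty acid to monoacylglycerol, averaged 10.38 ± 0.64 in adenomas and 5.65 ± 0.31 in untreated liver. Calml4 averaged 9.92 ± 0.57 in adenomas and 5.13 ± 0.32 in untreated liver, with the smallest spread of the 10. Vldlr, a lipoprotein receptor, averaged 9.37 ± 0.72 in adenomas, 6.56 ± 0.36 in phenobarbital liver and 4.67 ± 0.40 in untreated liver, and its drug difference of 1.89 did not pass (adjusted p 0.109).

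The 10 largest falls were Hal, Hsd3b5, Cyp2f2, Elovl3, Arg1, Hamp, Etnppl, Mup3, Amdhd1 and Mup10, with log2 differences between -6.93 and -5.08. Hal and Amdhd1 break down histidine, Arg1 closes the urea cycle, and Hamp encodes the iron hormone hepcidin. Hal was at 3.99, 4.20, 5.67, 5.24 and 5.32 in adenomas, at 11.35, 11.31, 11.21, 11.45 and 11.45 in phenobarbital liver and at 11.60, 11.65, 11.83, 12.46 and 11.53 in untreated liver. Arg1 was at 6.71, 6.47, 10.23, 9.85 and 8.003 in adenomas, at 14.04, 14.13, 14.10, 14.01 and 14.06 in phenobarbital liver and at 14.08, 14.11, 14.35, 14.32 and 14.05 in untreated liver. All adenomas were below all non-tumour arrays for both genes, and for Arg1 they spread more widely than the non-tumour arrays did. Hsd3b5 and Elovl3, expressed more in male than female mouse liver, fell to 5.19 ± 1.06 and 6.60 ± 1.20 in adenomas, against 11.34 ± 1.27 and 12.57 ± 0.40 in untreated liver.

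**Figure D4:**
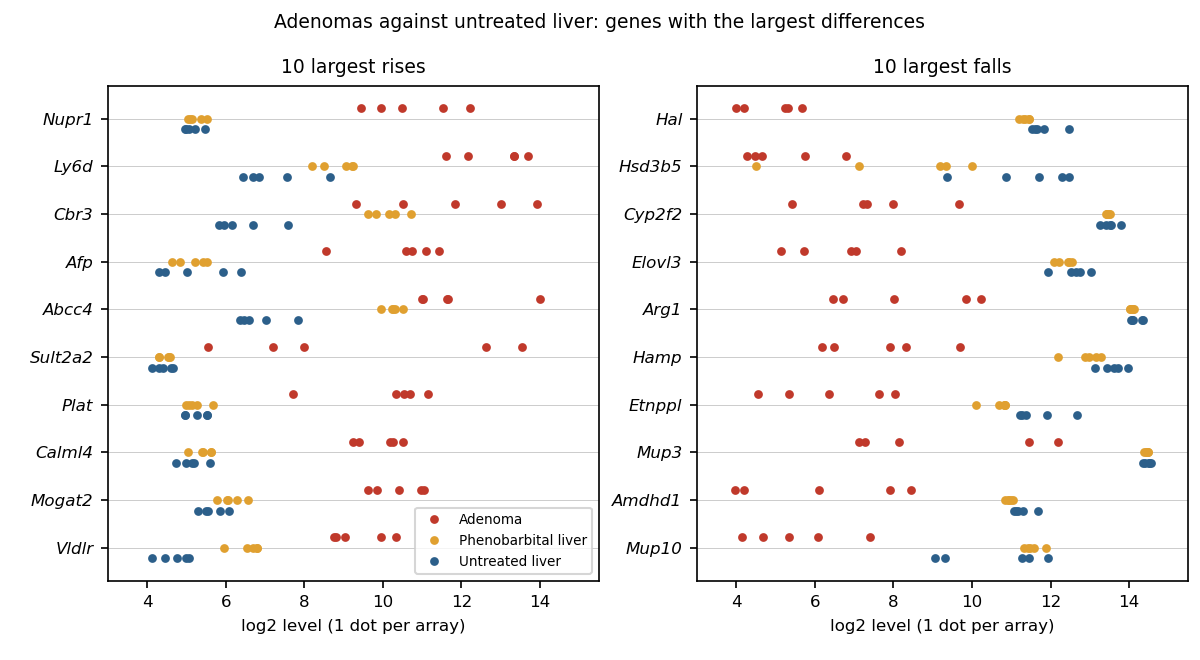
Log2 level per array (dots) of the 10 genes with the largest rises (left) and the 10 with the largest falls (right) in adenomas against untreated liver, with adenoma dots in the top row of each gene. Of these 20 genes Cbr3 and Abcc4 passed the test between phenobarbital and untreated liver, and Sult2a2 has the widest spread between adenomas among the rises.

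Gene lists place these changes by function. The lists were written with earlier results of these data known, and each count is read against 13.8% of all genes higher and 11.5% lower in adenomas. With untreated arrays 3 and 4 left out, 2075 of all 18193 genes were higher and 1722 lower. List counts without those arrays are read against these numbers. Of 24 measured P450 genes of drug metabolism, 6 were higher and 1 was lower, with a median difference of 0.29. Of the 6, 4 are the drug-raised Cyp2b and Cyp2c genes above and the others are Cyp1a1 and Cyp2c38, named after their values were seen, at 1.72 and 1.04. Without untreated arrays 3 and 4 the counts were 3 higher and 1 lower, the median was 0.16, and the calls of Cyp2b9, Cyp2b13 and Cyp1a1 were lost. Cyp2c23 fell by 2.05 (adjusted p 0.00237), and against phenobarbital liver 9 of the 24 were lower and none was higher (11.2% and 13.4% of all genes). Among the 9 are the 5 drug-raised genes of the list. These were chosen for high values on the same phenobarbital liver arrays, so nothing is read from that count. Cyp3a11, Cyp2e1 and Cyp2c29 sat near the top of the scale in every group and did not pass, with intervals of -1.54 to 1.33, -0.94 to 1.21 and -0.36 to 0.96. Cyp1a2 did not pass either, at a difference of 1.26 (95% interval 0.11 to 2.41).

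Of 50 phase II and carbonyl-reducing enzymes, 14 were higher and 9 lower in adenomas, with a median of 0.20. Cbr3 and Sult2a2 led the rises. The largest falls were Sult2a8, at 7.22, 10.26, 10.02, 8.47 and 8.51 in adenomas against 12.59 to 13.61 in untreated liver, and Aldh1b1, a mitochondrial aldehyde dehydrogenase, at 6.19, 6.10, 7.48, 6.95 and 6.19 against 9.58 to 11.44. Among 22 hepatocyte transporters 2 were higher, Abcc4 and the drug efflux pump Abcb1a (2.99, adjusted p 0.000115), and 7 were lower. The median of the list was -0.54, and -0.35 with untreated arrays 3 and 4 left out. Slco1a1 and Slc10a1, which take up organic anions and bile salts, fell by 4.72 and 2.57 (adjusted p 2.76e-06 and 0.00212).

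None of 18 nuclear receptors was higher in adenomas and 5 were lower. Nr1i3, the gene of CAR, was at 8.003, 9.99, 7.83, 9.34 and 8.69 in adenomas, at 9.997, 9.57, 9.48, 9.57 and 9.51 in phenobarbital liver and at 9.75, 9.85, 8.99, 8.38 and 9.93 in untreated liver. The groups overlapped, with a difference from untreated liver of -0.61 (95% interval -1.32 to 0.11, adjusted p 0.217). With untreated arrays 3 and 4 left out it was -1.07 (adjusted p 0.0345). The pregnane X receptor gene Nr1i2 differed by -0.01 (95% interval -0.36 to 0.35). Esr1, the oestrogen receptor, and Nr0b2, the bile acid responsive repressor SHP, fell by 1.23 and 1.19 (adjusted p 0.0405 and 0.000489). The call of Esr1 was lost in 10 of the 26 alternative settings and one of its probe sets gave 1.36 with adjusted p 0.118. Nr1h4, Thrb and Rora, named after their values were seen, were the other lower receptors, and the call of Rora was lost in 7 of the 26 settings.

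Of 34 genes of the Wnt pathway and its targets, 16 were higher and 4 lower, with a median of 0.36. Nkd1 and Sp5, feedback targets of the pathway, were higher by 3.204 and 2.37 (adjusted p 7.27e-06 and 3.13e-05). Axin2 rose by 2.10 (adjusted p 4.91e-06) and Ctnnb1, the gene of beta-catenin, differed by 0.05 (95% interval -0.19 to 0.29). Lgr5 and Tbx3 rose by 1.41 and 1.36 (adjusted p 0.016 and 0.00371), but both had their lowest untreated values on arrays 3 and 4. With those arrays left out the differences were 0.97 and 0.98 (adjusted p 0.151 and 0.0529). Ccnd1 and Myc rose by 1.37 and 1.22 (adjusted p 0.00348 and 0.0151), with overlap between the groups. Myc gave an adjusted p of 0.0503 without untreated array 2. Rspo3, Tcf7l1, Porcn and Lgr4 were the lower members, the last lost in 17 of 26 alternative settings.

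Genes of the pericentral and periportal zones moved apart. Of 29 pericentral genes 15 were higher in adenomas and none lower, with a median of 1.08, and 2 of the 15, Rhbg and Gstm3, are drug-raised genes described above. With untreated arrays 3 and 4 left out 11 were higher and 1 was lower, with a median of 0.69. Glul, glutamine synthetase, was at 14.35, 14.36, 14.27, 14.34 and 14.32 in adenomas, at 12.97, 13.18, 13.07, 13.23 and 12.99 in phenobarbital liver and at 13.26, 13.37, 12.39, 12.25 and 13.13 in untreated liver. Adenomas were above all non-tumour arrays with little spread, but near the top of the scale, where spread and difference may be understated. The other Glul probe set differed from untreated liver by 2.87 (adjusted p 9.82e-08). Slc1a2, a glutamate transporter, rose by 3.14 (adjusted p 2.77e-05), whereas Cyp7a1, which starts the conversion of cholesterol to bile acids, differed by 0.70 (95% interval 0.08 to 1.33, adjusted p 0.0957). Of 29 periportal genes none was higher and 20 were lower, with a median of -2.84. Cyp2f2 was at 5.43, 7.34, 7.21, 7.99 and 9.67 in adenomas against 13.26 to 13.80 in untreated liver.

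Of 31 genes of the urea cycle and amino acid catabolism, 23 were lower in adenomas and none higher, with a median of -1.40. Several stand in the periportal list too. Among 28 hepatocyte secretory and identity genes 4 were lower, Itih1, Tat, Cebpa and Asgr2, and none was higher, with a median of -0.39. The array means of this list lay between 12.21 and 12.39 in adenomas, 12.60 and 12.69 in phenobarbital liver, and 12.71 and 12.92 in untreated liver, so that adenomas were lowest and did not overlap the others. Itih1, an inhibitor heavy chain of plasma, fell by 1.89 (adjusted p 0.00127) and Tat, tyrosine aminotransferase, by 1.40 (adjusted p 0.0332), a call lost in 6 of 26 alternative settings. Cebpa and Asgr2 were named after their values were seen.

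Sex-biased liver genes also parted. Of 32 male-biased genes 17 were lower in adenomas and 1 higher, Wee1, with a median of -1.39. Of 32 female-biased genes 13 were higher and 3 lower, with a median of 0.81, and 6 of the 13 are drug-raised genes chosen above. Against phenobarbital liver 7 female-biased genes were higher and 6 lower, with a median of -0.06. Of the male-biased genes 2 were higher and 14 lower there, with a median of -0.67 (13.4% and 11.2% of all genes). The female-biased list holds 7 drug-raised genes, chosen for high values on those phenobarbital liver arrays. Cyp17a1, a steroid hydroxylase, and Lifr fell by 2.84 and 0.85 (adjusted p 0.00192 and 0.00145). Of 18 growth hormone and STAT5 genes 1 was higher and 6 lower, and 2 and 6 with untreated arrays 3 and 4 left out. Igfbp1, an insulin-like growth factor binding protein, was at 13.96, 14.13, 13.30, 14.32 and 13.07 in adenomas, at 8.87, 9.12, 8.14, 8.64 and 10.30 in phenobarbital liver and at 9.13, 7.56, 10.64, 10.49 and 10.33 in untreated liver. Egfr, the epidermal growth factor receptor, was at 9.81, 7.40, 9.95, 7.12 and 7.24 in adenomas, at 9.38, 10.88, 9.28, 10.16 and 9.95 in phenobarbital liver and at 11.89, 12.15, 10.93, 11.75 and 11.80 in untreated liver. Onecut1, a hepatocyte transcription factor, fell by 2.71 (adjusted p 0.000146).

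**Figure D5:**
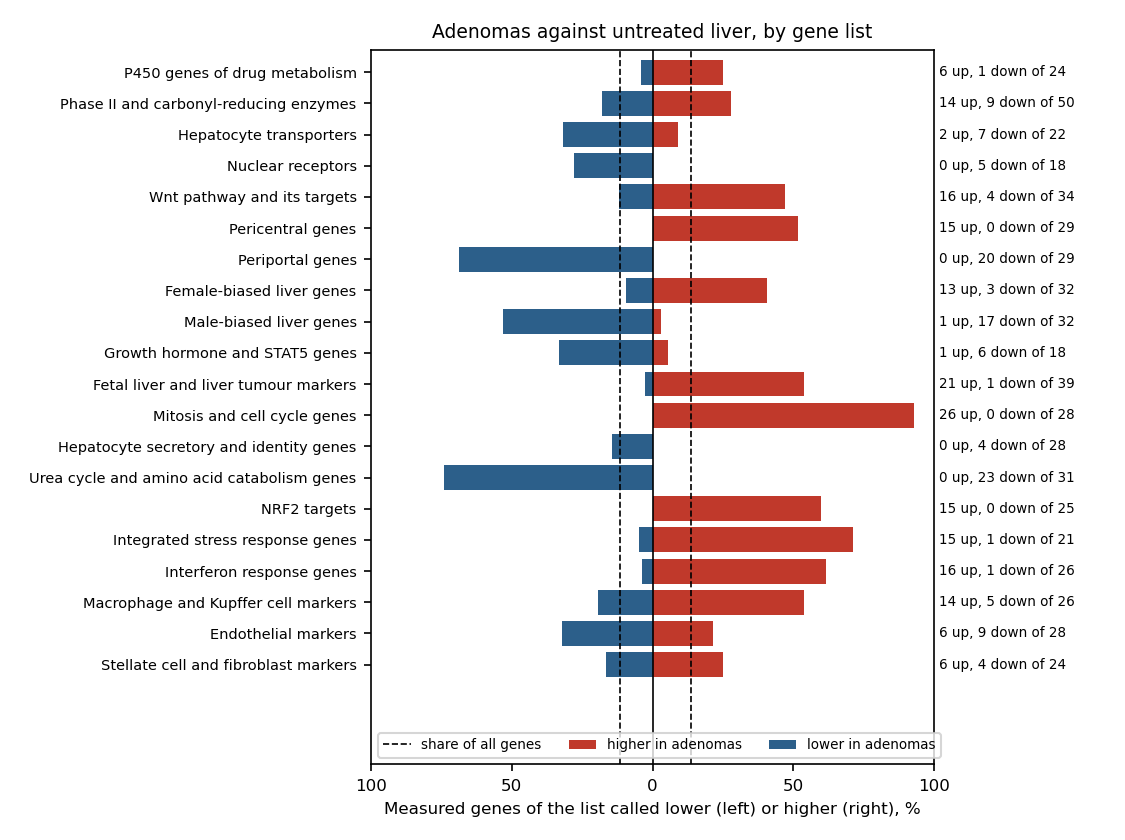
Share of the measured genes of 20 lists that were called higher (right) or lower (left) in adenomas than in untreated liver, with the counts beside each bar and dashed lines at the shares of all genes, 13.8% higher and 11.5% lower. Lists share genes. Mitosis genes, with 26 of 28 higher, and urea cycle and amino acid genes, with 23 of 31 lower, have the longest bars.

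Of 28 mitosis and cell cycle genes 26 were higher in adenomas, with a median of 1.5, and none was lower. Mki67 was at 8.82, 8.48, 9.27, 7.62 and 8.66 in adenomas, at 5.69, 5.56, 6.27, 5.23 and 5.47 in phenobarbital liver and at 5.04, 5.37, 6.98, 6.86 and 5.38 in untreated liver. Birc5, an inhibitor of apoptosis active in mitosis, rose by 2.46 (adjusted p 0.000665). Averaged over the list, adenoma arrays were between 6.42 and 7.74, phenobarbital liver arrays between 5.10 and 5.57, and untreated arrays between 5.04 and 5.92. Of 39 fetal liver and liver tumour markers 21 were higher, with Ly6d and Afp in front, and 1, Reln, lower, with a median of 1.37. Meg3, an imprinted non-coding RNA, ranged over 5.62, 13.25, 7.41, 10.62 and 6.85 in adenomas against 7.95, 8.95, 6.29, 6.64 and 7.09 in untreated liver and did not pass (adjusted p 0.453). Afp's other probe sets differed by 3.79, 3.55, 0.84 and 0.19.

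Lists of stress genes were mostly higher. Of 25 targets of NRF2, the regulator of antioxidant genes, 15 were higher and none lower, with a median of 1.04. The 15 include Cbr3, Abcc4, Gstm1 and Gstm3, so the list and the drug-raised set are not independent. Of 21 integrated stress response genes 15 were higher and 1, Shmt2, lower, with a median of 1.42. The fall of Shmt2 was lost in 4 of the 26 alternative settings. Of 26 interferon response genes 16 were higher and 1, Stat2, lower, with a median of 1.16. Usp18 and Ifit2 rose by 2.67 and 2.63 (adjusted p 1.84e-05 and 2.5e-07). Usp18 was at 10.12, 9.998, 10.52, 10.09 and 9.28 in adenomas, at 9.41, 9.59, 7.36, 9.04 and 9.26 in phenobarbital liver and at 7.04, 7.31, 7.03, 8.30 and 6.96 in untreated liver. Phenobarbital array 3 was near the untreated arrays and the other 4 were close to adenomas, and its drug difference of 1.60 had an adjusted p of 0.0844. The call of Stat2 was lost in 20 of 26 alternative settings, and with untreated arrays 3 and 4 left out 14 genes of the list were higher and none lower.

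Markers of some other cell types differed as well. Of 26 macrophage and Kupffer cell markers 14 were higher and 5 lower in adenomas, with a median of 0.71. Against phenobarbital liver 5 were higher and 6 lower (13.4% and 11.2% of all genes), with a median of 0.46. The array means of the list lay between 7.45 and 8.90 in adenomas, 7.98 and 8.31 in phenobarbital liver, and 7.47 and 8.20 in untreated liver. Cd68 was at 8.55, 7.83, 8.65, 10.57 and 8.55 in adenomas against 6.97, 6.27, 6.51, 7.35 and 6.03 in untreated liver. The lower members were Cd163, Timd4, Marco, Clec4f and Ccr2, of which the first 4 mark Kupffer cells, the resident macrophages, and the last 3 were named after their values were seen. Cd163 and Timd4 fell by 2.38 and 1.85 (adjusted p 1.04e-05 and 3.81e-06). With untreated arrays 3 and 4 left out the difference of Marco was -0.88 (adjusted p 0.0934). The call of Ccr2 was lost in 9 of the 26 settings, and its direction reversed in 1 more. Gpnmb was at 7.90, 7.19, 6.51, 12.18 and 6.24 in adenomas and its call was lost in 19 of 26 alternative settings.

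Of 28 endothelial markers 6 were higher and 9 lower, with array means between 7.88 and 8.03 in adenomas, 8.08 and 8.21 in phenobarbital liver, and 8.0 and 8.18 in untreated liver. Cd34 and Emcn rose by 2.71 and 1.56, while Rspo3 and Wnt2, Wnt signals from central vein endothelium, fell by 1.89 and 1.59 (adjusted p 6.9e-06, 0.000587, 2.48e-05 and 2.88e-05). Of 24 stellate cell and fibroblast markers 6 were higher and 4 lower, with array means between 6.95 and 8.55 in adenomas, 7.24 and 7.45 in phenobarbital liver, and 7.08 and 7.76 in untreated liver. Col1a2, a collagen chain, and Acta2, smooth muscle actin, rose by 2.21 and 2.02, and Lrat and Reln, of quiescent stellate cells, fell by 2.09 and 1.66 (adjusted p 0.000245, 0.00358, 0.000164 and 0.00553). Dcn and Ngfr, named after their values were seen, were the other lower members, and the call of Ngfr was lost in 18 of 26 alternative settings. Of 18 T and NK cell markers 2 were higher and 1 lower, of 15 B and plasma cell markers 1 and 1, of 17 biliary and progenitor markers 2 and 0, of 9 adipose markers 2 and 1, and of 14 blood cell markers 1 and 0. Apart from the 2 higher adipose markers, these counts did not exceed the shares of all genes. With untreated arrays 3 and 4 left out the counts were 3 and 1 for T and NK cell markers, 0 and 1 for B and plasma cell markers, and 3 and 1 for biliary and progenitor markers. Of all 18193 genes 2075 were then higher and 1722 lower. The 3 higher T and NK cell markers and the 3 higher biliary and progenitor markers were above that share. The stellate cell list had a median of 0.30 with all arrays and 0.51 without them. What part these cells had in the gene differences above was not tested.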

How the data were processed

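Total RNA of 20 mouse liver samples was hybridised to 3′ expression arrays, 1 array per sample. The authors deposited log2 values for 45037 probe sets on each array, made with RMA per the submitters' processing notes. RMA normalizes between arrays and shrinks differences of dim probe sets. Signal near the top of the scale understates differences. The number of arrays limits the precision.

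Probe sets were named through the platform annotation, with 34945 having 1 gene symbol, 932 several and 9160 none. Of the 34945, 34741 matched a gene in RefSeq (GRCm38.p6). Each gene was represented by its single-symbol probe set with the highest mean over all arrays. Probe sets ending in _x_at were passed over where the gene had another kind. One limma model (limma 3.58.1, R 4.3.3) with the 4 groups was fitted to 18193 genes, with empirical Bayes moderation, and p-values were Benjamini-Hochberg adjusted over all genes within each comparison at a threshold of 0.05. Intervals are 95% intervals of this fit. The procedure was tested on simulated data. Tables and figures were made with Python 3.11.15, pandas 2.3.3 and matplotlib 3.10.9.

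A drug-raised gene passed as higher in phenobarbital than in untreated liver. It was still raised in adenomas if it passed as higher than untreated liver, and had returned if it did not pass against untreated liver and passed as lower than phenobarbital liver. The text names the 10 largest rises and falls without overlap of arrays, every gene called for the drug, up to 2 genes per list and direction, and a panel of markers. Members and lists were chosen with earlier results of these data known. The 26 alternatives were another probe set rule, a filter on dim genes, scaling, weights, other moderation, a replicate block, other samples in the fit, and leaving out each array.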

Additional observations from a re-analysis of the deposited data

Results flagged for a closer look

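Single arrays that stood far from the other 4 of their group were looked for in 142 named genes, over 323 groups of arrays. Dixon's test at 95% marked 16 (4.95%), where chance marks about 1 in 20, with 9 in adenomas, 2 in phenobarbital liver and 5 in untreated liver.

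Adenoma array 5 had 4 of them. Abcc4 was at 13.99 there and between 10.99 and 11.66 on the other adenomas. Cyp1a1, a P450 induced through the aryl hydrocarbon receptor, was at 10.17 against 5.71 to 6.54, and Rsph4a at 5.71 against 3.64 to 4.21. Esr1 was at 6.23 against 8.90 to 9.32. Adenoma array 4 had 3. Gpnmb, a macrophage and lysosome gene, was at 12.18 against 6.24 to 7.90, Cyp2g1 at 4.55 against 5.26 to 5.54, and Cyp2e1 at 14.24 against 14.55 to 14.65. Plat was at 7.72 on adenoma array 2 against 10.34 to 11.16 on the others, and Ifit2 at 8.34 on adenoma array 1 against 8.84 to 8.97.

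In phenobarbital liver, array 5 had Gstm1 at 13.71 against 13.89 to 13.94 and Cdh19 at 5.11 against 6.48 to 6.69. In untreated liver, array 4 had Lgals1 at 10.64 against 11.52 to 11.86, Bhlhb9 at 5.85 against 6.66 to 6.84 and Usp18 at 8.30 against 6.96 to 7.31. Nr1i2 was at 8.71 on untreated array 3 against 8.08 to 8.26, and Cyp2g1 at 6.05 on untreated array 5 against 5.38 to 5.50.

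Outside the genes compared, 465 of the 10092 probe sets with several gene symbols or none were higher in adenomas than in untreated liver.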

How the results depend on the processing

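Numbers of called genes moved most for the drug outside tumours, which called 39 genes. It called 205 with array weights, 265 when only the 2 groups were fitted, 59 over all single-symbol probe sets, 28 without untreated arrays 3 and 4, and between 23 and 45 when 1 array was left out. Genes still raised in adenomas then numbered 77 with array weights and 87 with 2 groups, and between 9 and 26 with 1 array left out. Returned genes numbered 37, 33, 18 over all probe sets, 18 without the carcinomas, and between 8 and 14 with 1 array left out. Over all single-symbol probe sets 7684 differed between adenomas and untreated liver, 4054 higher and 3630 lower, and 7394 between adenomas and phenobarbital liver; more features are tested there. With 1 array left out adenomas against untreated liver gave 3887 to 4571 genes (2152 to 2531 higher, 1735 to 2040 lower) and adenomas against phenobarbital liver 3719 to 4526. Of the 35 drug-raised genes, 22 kept the drug call without untreated arrays 3 and 4, and 20 to 34 with 1 array left out. One direction reversed, that of Ccr2, at 0.295 with the mean of its probe sets. Elsewhere the cause was not tested.

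With the replicate number as a block, 4461 genes differed between adenomas and untreated liver, 39 for the drug and 4312 between adenomas and phenobarbital liver, with 20 still raised and 11 returned. Each array's deviations from its group mean were correlated over genes between same-numbered arrays. The correlations were 0.02 to 0.13 for adenomas and untreated liver, where 1 of 5 adenomas correlated best with its own number. They were -0.05 to -0.01 for adenomas and phenobarbital liver (0 of 5), and -0.11 to 0.07 for phenobarbital and untreated liver (2 of 5). The numbers were therefore not taken as pairs.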

Other observations

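Further lists are read against the same shares of all genes, 13.8% higher and 11.5% lower in adenomas than in untreated liver. Counts without untreated arrays 3 and 4 are read against 2075 higher and 1722 lower of 18193. Of 27 DNA replication genes 17 were higher and 1 lower in adenomas, with a median difference of 0.82. Uhrf1, which keeps DNA methylation through replication, and Mcm6, of the replicative helicase, rose by 2.24 and 2.22 (adjusted p 7.92e-05 and 6.41e-05). Tk1, thymidine kinase, was at 8.16, 7.70, 8.12, 7.25 and 7.62 in adenomas against 8.47, 8.46, 8.81, 8.89 and 8.43 in untreated liver, the 1 member that was lower, a call lost without untreated arrays 3 and 4. Of 31 lipogenesis and lipid droplet genes 4 were higher, near the share of all genes, and 9 lower, with a median of -0.34. The desaturase gene Scd2 was at 12.74, 13.13, 12.08, 12.48 and 12.34 in adenomas against 7.61, 7.18, 10.12, 12.11 and 6.94 in untreated liver, where arrays 3 and 4 were the highest untreated arrays. Thrsp, a regulator of lipogenesis, and the lipid droplet gene Cidea fell by 2.59 and 3.15 (adjusted p 0.00047 and 0.00071), and Fabp4, a fatty acid binding protein, rose by 2.07 (adjusted p 0.00718).

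Of 24 fatty acid oxidation genes 4 were higher, near the share of all genes, and none lower. Fgf21, a fasting hormone of the liver, was at 9.86, 10.96, 11.42, 10.73 and 10.33 in adenomas, at 6.75, 6.62, 6.74, 6.51 and 6.999 in phenobarbital liver and at 6.41, 6.07, 7.23, 6.66 and 7.47 in untreated liver, with no overlap of adenomas and the rest. Pdk4, which holds back pyruvate oxidation, rose by 2.03 (adjusted p 0.000124). Of 23 bile acid genes none was higher and 9 were lower, and Cyp8b1, which sets the share of cholic acid, fell by 2.68 (adjusted p 0.00157). Of 16 p53 targets 4 were higher and 2 lower, and 5 and 1 with untreated arrays 3 and 4 left out. Cdkn1a, the cell cycle inhibitor p21, and Phlda3 rose by 2.52 and 1.35 (adjusted p 4.11e-06 and 0.0025), and Perp and Plk3 fell by 1.40 and 0.89 (adjusted p 0.0136 and 0.0189). Of 9 MHC class II and related genes 5 were higher and none lower. H2-Aa and H2-Ab1, which form an MHC class II pair, rose by 1.66 and 1.59 (adjusted p 0.00264 and 0.00171). Of 20 cholesterol synthesis genes 3 were higher and 3 lower (2 and 3 with those arrays left out), and of 28 acute phase genes 3 and 3. The counts of these last lists are near the shares of all genes.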
